A study of Mus musculus with 6 samples.

Results

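The cytochrome P450 genes of families 1 to 3, which hold most of the liver's drug and toxicant oxidizing enzymes, were followed by subfamily in hepatocytes that lacked or kept FOXA2. Members were taken by symbol, Cyp followed by 1, 2 or 3, a letter and a number, without pseudogenes and without Cyp1a2, Cyp2e1 and Cyp2c70, which gave 57 of the 34745 genes counted. They comprised 1 Cyp1a, 1 Cyp1b, 4 Cyp2a, 5 Cyp2b, 14 Cyp2c, 8 Cyp2d, 8 Cyp2j and 9 Cyp3a genes and 1 gene each of Cyp2f, Cyp2g, Cyp2r, Cyp2s, Cyp2t, Cyp2u and Cyp2w. The rule uses no measured value.

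RNA was sequenced from primary hepatocytes of 12-week-old male mice that all carried floxed Foxa2 alleles (FOXA2f/f) and all received CCl4, a liver toxicant that brings about fibrosis, at 0.25 ml/kg 2 times a week for 4 weeks. At 2 weeks before the first CCl4 dose the tail vein was injected either with a control AAV8-TBG virus, giving the FOXA2f/f group of 3 libraries, or with AAV8-TBG-Cre, giving the FOXA2H-KO group of 3 libraries. The TBG promoter limits Cre to hepatocytes, so that other liver cells keep Foxa2. No library came from a mouse without CCl4, and what CCl4 itself did to the P450 genes was therefore not measured. The libraries carry the replicate numbers 1, 2 and 4 in each group. Nothing in the sources used here states that every library is a separate mouse, and p-values measure only the spread between these libraries.

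P450 enzymes are haem proteins of the endoplasmic reticulum that insert oxygen into lipophilic compounds, with electrons delivered by the reductase POR and by cytochrome b5. Several families are switched on by ligand sensors, namely AHR for family 1, CAR (Nr1i3) for Cyp2b and PXR (Nr1i2) for Cyp3a. In mouse liver many of these genes lie in tandem clusters, differ between the sexes through growth hormone, and are strongest in the hepatocytes around the central vein.

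Total counts were between 20983455 and 28327765 per library. Foxa2, the deleted gene, had 442, 246 and 516 counts in the FOXA2f/f libraries and 28, 19 and 35 counts in the FOXA2H-KO libraries, a log2 fold change of -3.85 ± 0.31 (SE) with an adjusted p of 0.0313 in edgeR's quasi-likelihood test, and was the only gene of 14417 tested that passed an adjusted p of 0.05 and a 2-fold change. Levels are given as CPM, counts scaled to a common total on the TMM-adjusted library size, and fold changes as FOXA2H-KO against FOXA2f/f. The 7 hepatocyte markers summed to 101720.0 to 140214 CPM in FOXA2f/f and 95280.5 to 126122 CPM in FOXA2H-KO libraries, and transcripts of other liver cells were present in all 6. Of the markers tested, 3 of 8 endothelial, 7 of 8 macrophage, 4 of 5 lymphocyte and 1 of 5 neutrophil genes were higher in FOXA2H-KO, and 4 neutrophil genes were lower at an unadjusted p under 0.05. The sums of each of these lists overlapped between the groups. They were 386 to 1687 CPM in FOXA2f/f and 885 to 1230 CPM in FOXA2H-KO libraries for macrophages. For neutrophils they were 7.62 to 80.9 CPM in FOXA2f/f, lowest in replicate 2, and 16.7 to 26.5 CPM in FOXA2H-KO libraries. In such bulk samples fewer cells of a type and less RNA per cell cannot be told apart. FOXA2H-KO replicate 4 stood apart in the P450 genes. It was the lowest of the 6 libraries for 15 of 40 tested members, against 13.0% of all genes. FOXA2f/f replicate 2 was the highest for 15 of 40, but it was also the highest for 29.7% of all genes.

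No member passed the test, and the group differences that stood out ran in both directions. Cyp2a4, Cyp2a5 and Cyp2b9 were lower and Cyp2b10, Cyp2s1, Cyp2c23 and Cyp2c68 higher in FOXA2H-KO at an unadjusted p under 0.05, while 7 of the 9 Cyp3a genes had their lowest value in 1 FOXA2H-KO library, replicate 4. Of the 57 members, 40 had enough counts to be tested, and the remaining 17 averaged at most 0.356 CPM, 7 of them without a single count. None of the 40 was called at an adjusted p under 0.05 and 2-fold by edgeR's quasi-likelihood test, against 0.00694% of all genes tested, with adjusted p-values between 0.579 and 0.997. DESeq2 and edgeR's exact test each called 1 member, Cyp2a4, as lower, where the same rule called 0.309% and 0.277% of all genes as lower. At an unadjusted p under 0.05, 4 members (10%) were higher, against 1.98% of all genes tested, and 3 (7.5%) were lower, against 3.18%. With library size alone as the scaling this split was 5 higher and 1 lower, and without FOXA2H-KO replicate 1 it was 2 higher and 5 lower.

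The members were evenly split in direction, with 20 higher and 20 lower, and their median log2 fold change was -0.01, equal to the -0.01 of all genes tested. The size of the difference was greater, the median of its absolute log2 value being 0.45 for members and 0.16 for all genes. Of the 40 tested members 6 differed at least 2-fold, and of all genes 2.95%. Among these 6, Cyp2b9, Cyp2s1, Cyp3a41b and Cyp3a44 were at a low level, with means of 1.91, 0.615, 0.932 and 1.11 CPM. Of the 25 members with a mean of at least 10 CPM, 19 differed by less than 1.5-fold. Groups did not overlap for 5 members that were higher in FOXA2H-KO (12.5%, against 4.53% of all genes) and for 4 that were lower (10%, against 5.95%). The first were Cyp2b10, Cyp2c23, Cyp2c37, Cyp2c68 and Cyp2s1, and the second Cyp2a4, Cyp2a5, Cyp2d10 and Cyp3a44. With library size alone as the scaling the split was 7 higher and 2 lower, the groups of Cyp2d10 and Cyp3a44 then overlapping. With 3 libraries against 3, the exact two-sided permutation test of a single gene cannot give a p below 0.1, the value that each of these 9 members had.

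**Figure D1:**
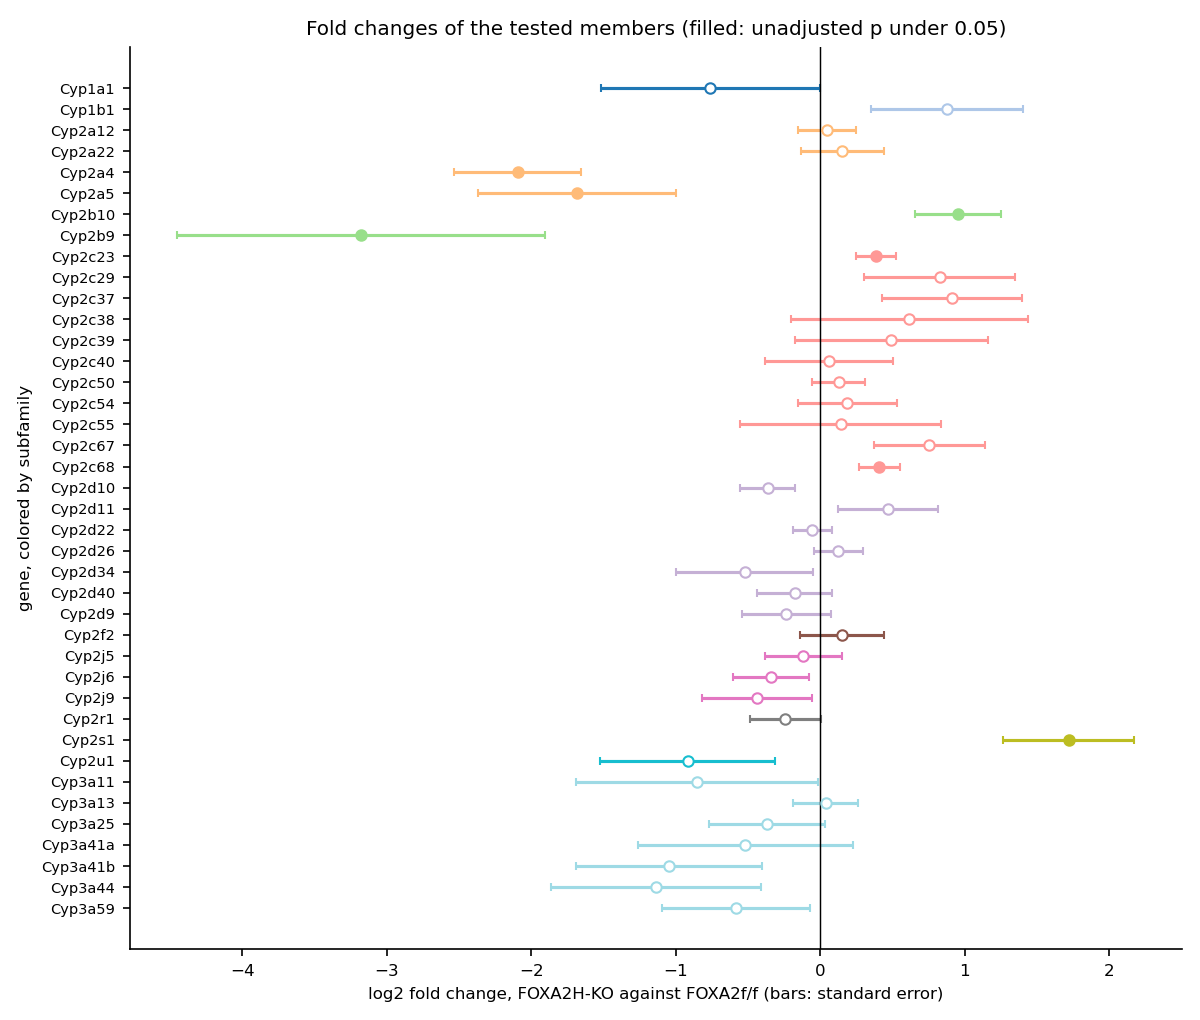
Log2 fold change of the 40 tested members, FOXA2H-KO against FOXA2f/f (x axis), one gene per line and colored by subfamily, with bars for the standard error and filled points for an unadjusted p under 0.05. The 11 Cyp2c genes lie to the right of 0 and 6 of 7 Cyp3a genes to the left, while the filled points are found on both sides.

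Per unit of gene length, the members covered a wide range of levels. Cyp3a11, the main mouse drug oxidizing CYP3A enzyme, had a mean of 1039.7 FPKM over the 6 libraries. It was followed by Cyp2d26 at 386 FPKM, Cyp2d9 at 354 FPKM, Cyp2f2 at 267 FPKM and Cyp2d10 at 186 FPKM. The next were Cyp2a12 (158 FPKM), Cyp2j5 (154 FPKM), Cyp3a25 (134 FPKM) and Cyp2c23 (133 FPKM). Together the 57 members took between 0.563% and 1.63% of a library's counts, and the lowest of these shares was that of FOXA2H-KO replicate 4. Of the 25 members with a mean of at least 10 CPM, 14 were higher and 11 lower in FOXA2H-KO, and 19 differed by less than 1.5-fold.

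**Figure D2:**
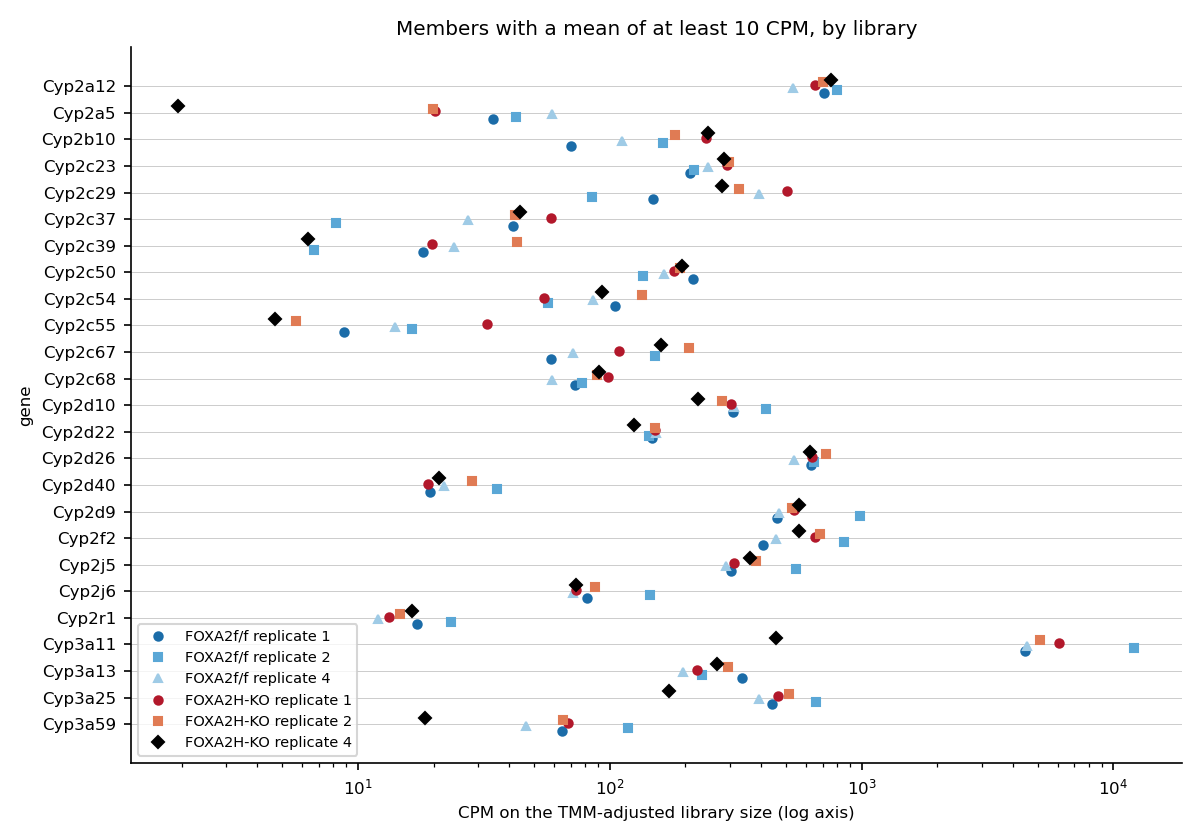
CPM on the TMM-adjusted library size (log axis) of the 25 members with a mean of at least 10 CPM, one gene per line, with circles, squares and triangles for the 3 FOXA2f/f libraries in blue and circles, squares and diamonds for the 3 FOXA2H-KO libraries in red, orange and black. The black diamond of FOXA2H-KO replicate 4 lies far to the left of the other points for Cyp2a5, Cyp3a11, Cyp3a25 and Cyp3a59.

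Cyp1a1 and Cyp1b1, the family 1 members, were at a low level in all libraries. Cyp1a1, the AHR-inducible oxidase of polycyclic aromatic hydrocarbons, had 2.62, 7.62 and 3.56 CPM in the FOXA2f/f libraries and 6.03, 1.24 and 0.740 CPM in the FOXA2H-KO libraries. The groups overlapped and the spread within each was wider than the gap between them, with a log2 fold change of -0.76 ± 0.76 (SE) and an adjusted p of 0.983. The value was -0.20 without FOXA2f/f replicate 2, -0.31 without FOXA2H-KO replicate 4 and -2.19, at an unadjusted p under 0.05, without FOXA2H-KO replicate 1. Cyp1b1, which hydroxylates estrogens and is known mainly from cells other than hepatocytes, had 3.0, 1.86 and 1.27 CPM in the FOXA2f/f libraries and 6.5, 1.8 and 2.91 CPM in the FOXA2H-KO libraries. FOXA2H-KO replicate 1 was the highest and the groups overlapped, with a log2 fold change of 0.88 ± 0.53 (SE) and an adjusted p of 0.964, and the value was 0.21 without that library. The 8 stellate cell or fibroblast markers summed to 858 to 2297 CPM in FOXA2f/f and 1339 to 2352 CPM in FOXA2H-KO libraries. The highest sums of the groups were in FOXA2f/f replicate 4 and FOXA2H-KO replicate 1, the libraries with the lowest and the highest Cyp1b1 value. The log2 fold changes were above 0 in 8 of 8, with no marker at 0 in all libraries and none at an unadjusted p under 0.05. Not all stayed above 0 with 1 library left out, the lowest being -0.38 without FOXA2H-KO replicate 4. The part of such cells in the Cyp1b1 values was not tested.

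Ahr, the gene of the sensor itself, had 62.2, 30.7 and 63.1 CPM in the FOXA2f/f libraries and 58.8, 42.5 and 44.2 CPM in the FOXA2H-KO libraries, with a log2 fold change of -0.10 and an adjusted p of 0.993. Of 5 AHR targets outside the P450 genes, 4 were tested, of which 2 were higher and 2 lower. Ugt1a6a, a phenol glucuronosyltransferase, had 2.40, 2.69 and 2.64 CPM in the FOXA2f/f libraries and 4.70, 3.73 and 3.47 CPM in the FOXA2H-KO libraries, with a log2 fold change of 0.62, an unadjusted p of 0.0300 and an adjusted p of 0.902. Its groups did not overlap, while Gsta1, a glutathione transferase, had a log2 fold change of -0.83 with an adjusted p of 0.957, which was -0.14 without FOXA2f/f replicate 2.

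In the Cyp2a subfamily the pair Cyp2a4 and Cyp2a5 was lower in FOXA2H-KO and the pair Cyp2a12 and Cyp2a22 was not. Cyp2a4, a female-biased steroid hydroxylase, had 177, 217 and 519 counts in the FOXA2f/f libraries and 45, 115 and 47 counts in the FOXA2H-KO libraries, or 7.60, 11.9 and 16.5 CPM in the FOXA2f/f libraries and 1.65, 4.61 and 2.17 CPM in the FOXA2H-KO libraries. Every FOXA2H-KO library was below every FOXA2f/f library. The means were 12.0 ± 4.44 CPM (SD, n = 3) in FOXA2f/f and 2.81 ± 1.58 CPM (SD, n = 3) in FOXA2H-KO, a level of 23.4% of FOXA2f/f. The log2 fold change was -2.09 ± 0.44 (SE), with an unadjusted p of 0.00162 and an adjusted p of 0.579 in edgeR's quasi-likelihood test. DESeq2 gave Cyp2a4 an adjusted p of 0.00153 and edgeR's exact test 0.00611, so that its call depended on the tool. Over all 13 alternative settings the log2 fold change of Cyp2a4 was between -2.65 and -1.51, and the unadjusted p was under 0.05 in each.

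Cyp2a5, the mouse coumarin hydroxylase, had 34.4, 42.4 and 59.0 CPM in the FOXA2f/f libraries and 20.3, 19.9 and 1.94 CPM in the FOXA2H-KO libraries. The groups did not overlap, and FOXA2H-KO replicate 4 lay far below the other FOXA2H-KO libraries. The means were 45.3 ± 12.5 CPM (SD, n = 3) in FOXA2f/f and 14 ± 10.5 CPM (SD, n = 3) in FOXA2H-KO, and the log2 fold change was -1.68 ± 0.69 (SE) with an unadjusted p of 0.0408 and an adjusted p of 0.941. It was -1.16 without FOXA2H-KO replicate 4, and the unadjusted p was under 0.05 in 8 of 13 alternative settings, DESeq2 and library size alone not among them. Cyp2a4 and Cyp2a5 shared between 11.2% and 12.1% of their 100-base transcript windows with another gene, for the most part with each other, so that a part of their reads could have been assigned to either.

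Both genes lie on the forward strand of chromosome 7, and their upstream regions are nearly the same. In the RefSeq promoter table (GRCm38.p6), the 249 bases before the start of Cyp2a4 (chr7:26306943-26307191) and the aligned 249 bases of Cyp2a5 (chr7:26835089-26835337) were identical at 245 positions (98.4%). They are shown because this pair had the most negative log2 fold changes among members with a mean over 2 CPM, with the 4 positions that differ in capitals.
Cyp2a4: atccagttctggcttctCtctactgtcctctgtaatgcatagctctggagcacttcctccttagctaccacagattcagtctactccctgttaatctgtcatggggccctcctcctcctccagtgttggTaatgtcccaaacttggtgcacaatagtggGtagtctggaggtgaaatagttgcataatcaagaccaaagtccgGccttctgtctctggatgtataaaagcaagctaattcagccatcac
Cyp2a5: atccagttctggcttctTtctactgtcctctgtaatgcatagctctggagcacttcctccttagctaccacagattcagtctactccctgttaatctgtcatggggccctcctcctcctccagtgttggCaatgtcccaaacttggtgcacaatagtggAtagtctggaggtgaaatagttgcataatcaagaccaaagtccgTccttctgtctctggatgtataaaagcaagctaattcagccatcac
Neither stretch held a FOXA core, defined as TGTTTAC, its close variant TATTTAC, the further variant TGTTTGC or lastly TATTTGC, on either strand. A missing match says only that these letters are not in this window.

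Cyp2a12, which hydroxylates steroids and was the most abundant Cyp2a gene at 158 FPKM, had 709, 796 and 533 CPM in the FOXA2f/f libraries and 651, 703 and 754 CPM in the FOXA2H-KO libraries. The groups overlapped, with a log2 fold change of 0.05 ± 0.20 (SE), and the FOXA2H-KO libraries lay within the range of the FOXA2f/f libraries. Cyp2a22 was at 6.10 ± 2.44 CPM (SD, n = 3) in FOXA2f/f and 6.78 ± 0.262 CPM (SD, n = 3) in FOXA2H-KO, with a log2 fold change of 0.15. The sum of the 4 Cyp2a genes, of which Cyp2a12 made up the most, was 759.9, 856 and 613 CPM in FOXA2f/f and 679, 734 and 765 CPM in FOXA2H-KO.

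The Cyp2b genes on the same chromosome divided as well. Cyp2b10, the standard target of CAR and an oxidase of barbiturate-like drugs, had 70.2, 163 and 112 CPM in the FOXA2f/f libraries and 241, 181 and 246 CPM in the FOXA2H-KO libraries. Every FOXA2H-KO library was above every FOXA2f/f library, and the means were 115 ± 46.4 CPM (SD, n = 3) in FOXA2f/f and 223 ± 36.1 CPM (SD, n = 3) in FOXA2H-KO. The log2 fold change was 0.95 ± 0.30 (SE), with an unadjusted p of 0.0133 and an adjusted p of 0.791. In the 13 alternative settings the log2 fold change was between 0.71 and 1.29 and the unadjusted p under 0.05 each time, while no setting called Cyp2b10. Without FOXA2f/f replicate 2 the value was 1.29.

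Cyp2b9, a gene known for its female bias, had 189, 4 and 63 counts in the FOXA2f/f libraries and 2, 24 and 2 counts in the FOXA2H-KO libraries. The range within FOXA2f/f was wide, since replicate 1 held most of the counts, and FOXA2f/f replicate 2 lay below FOXA2H-KO replicate 2. Its log2 fold change was -3.18 ± 1.27 (SE), with an unadjusted p of 0.0385 and an adjusted p of 0.940. The log2 fold change was -1.59 at the closest to 0 in the 11 alternative settings that kept this gene, and the unadjusted p was under 0.05 in 6 of these. Cyp2b13 and Cyp2b19 had at most 3 counts in any library, and Cyp2b23 had none.

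The CAR gene Nr1i3 had 15.4, 3.12 and 12.0 CPM in the FOXA2f/f libraries and 12.9, 14.3 and 17.7 CPM in the FOXA2H-KO libraries, with overlapping groups, a log2 fold change of 0.55 and an adjusted p of 0.983, and a log2 fold change of 0.14 without FOXA2f/f replicate 2. Of 6 CAR and PXR targets outside the P450 genes, 3 were higher and 3 lower, and none had an unadjusted p under 0.05. Slco1a4, an organic anion transporter, had the smallest p of the 6, with a log2 fold change of -0.51 and an adjusted p of 0.941. It was followed by Papss2, which makes the sulfate donor, with a log2 fold change of 0.19 and an adjusted p of 0.983. The median log2 fold change of these 6 targets was -0.03, and that of all genes tested -0.01.

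**Figure D3:**
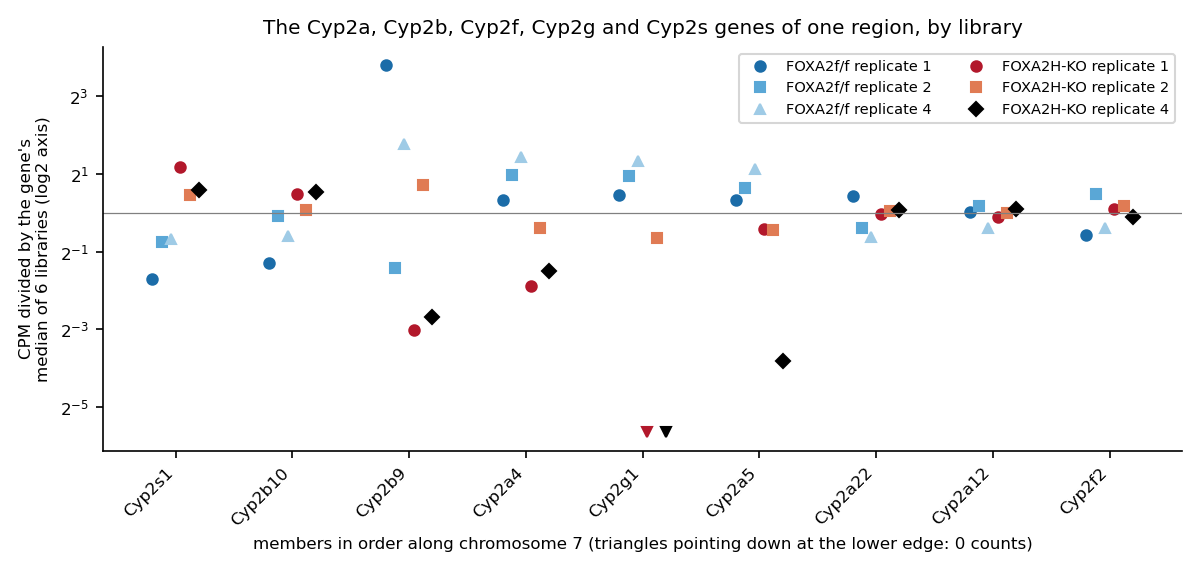
CPM of 9 members of one region of chromosome 7, each divided by the gene's median of the 6 libraries (log2 axis), in their order along the chromosome, with downward triangles at the lower edge for libraries with 0 counts. Cyp2s1 and Cyp2b10 have the FOXA2H-KO libraries on top, and Cyp2a4, Cyp2g1 and Cyp2a5 have them at the bottom. In Cyp2a22, Cyp2a12 and Cyp2f2 the FOXA2H-KO libraries lie within the range of the FOXA2f/f libraries.

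The Cyp2c genes, several of which oxidize arachidonic acid, had higher fitted values in FOXA2H-KO without any call. All 11 tested Cyp2c genes had a log2 fold change above 0 in FOXA2H-KO, from 0.06 to 0.91 with a median of 0.41, where 47.8% of all genes tested were higher. In the reported test only Cyp2c23 and Cyp2c68 had an unadjusted p under 0.05, and none was called. The 14 Cyp2c genes summed to 878, 758 and 1088 CPM in FOXA2f/f and 1357, 1341 and 1157 CPM in FOXA2H-KO, without overlap. On total counts in place of the TMM-adjusted library size the sums were 659 to 1209 CPM in FOXA2f/f and 1149 to 1525 CPM in FOXA2H-KO, and overlapped. The genes lie in tandem, with the exception of Cyp2c23, and share sequence, so that they are not independent of one another.

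Cyp2c23, an arachidonic acid epoxygenase, had 209, 216 and 245 CPM in the FOXA2f/f libraries and 294, 298 and 284 CPM in the FOXA2H-KO libraries. The means were 223 ± 19.0 CPM (SD, n = 3) in FOXA2f/f and 292 ± 7.29 CPM (SD, n = 3) in FOXA2H-KO, without overlap, and the log2 fold change was 0.39 ± 0.14 (SE) with an unadjusted p of 0.0245 and an adjusted p of 0.846. Cyp2c68, a gene whose substrates are little known, had 72.8, 77.8 and 59.1 CPM in the FOXA2f/f libraries and 98.5, 89.1 and 91.0 CPM in the FOXA2H-KO libraries. The groups did not overlap, and the log2 fold change was 0.41 ± 0.14 (SE) with an unadjusted p of 0.0202 and an adjusted p of 0.836. The unadjusted p was under 0.05 in 8 of 13 alternative settings for Cyp2c23 and in 11 of 13 for Cyp2c68. It was also under 0.05 in 4 of 13 for Cyp2c37 and in 6 of 13 for Cyp2c67. Cyp2c37, another epoxygenase, had 41.4, 8.22 and 27.3 CPM in the FOXA2f/f libraries and 58.8, 42.1 and 44.2 CPM in the FOXA2H-KO libraries. Its lowest FOXA2H-KO library was just above its highest FOXA2f/f library, and FOXA2f/f replicate 2 was far below the rest. The log2 fold change was 0.91 ± 0.48 (SE) with an adjusted p of 0.952, and 0.50 without FOXA2f/f replicate 2.

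The other Cyp2c genes overlapped between groups. Cyp2c29, an inducible epoxygenase of pericentral hepatocytes, had 148, 85.2 and 393 CPM in the FOXA2f/f libraries and 507, 327 and 278 CPM in the FOXA2H-KO libraries. FOXA2f/f replicate 2 was again the lowest, and the log2 fold change of 0.83 ± 0.53 (SE) became 0.46 without it, and 1.67, at an unadjusted p under 0.05, without FOXA2f/f replicate 4. Cyp2c67 had 58.2, 151 and 71.8 CPM in the FOXA2f/f libraries and 109, 206 and 159.7 CPM in the FOXA2H-KO libraries, and here FOXA2f/f replicate 2 was the highest of its group. The log2 fold change of 0.76 ± 0.38 (SE) became 1.28 without that library. Cyp2c39, a retinoic acid hydroxylase, had 18.1, 6.69 and 24.1 CPM in the FOXA2f/f libraries and 19.7, 43.1 and 6.33 CPM in the FOXA2H-KO libraries. FOXA2H-KO replicate 2 was the highest and the log2 fold change of 0.49 turned to -0.33 without it. Cyp2c50 and Cyp2c54, both epoxygenases, had log2 fold changes of 0.13 and 0.19, with means of 172 ± 39.5 CPM (SD, n = 3) in FOXA2f/f and 188 ± 7.56 CPM (SD, n = 3) in FOXA2H-KO for Cyp2c50. For Cyp2c54 the means were 82.8 ± 24.4 CPM (SD, n = 3) in FOXA2f/f and 94.4 ± 40.0 CPM (SD, n = 3) in FOXA2H-KO.

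Cyp2c55, which CAR and PXR ligands induce, had 8.80, 16.4 and 14 CPM in the FOXA2f/f libraries and 32.6, 5.69 and 4.71 CPM in the FOXA2H-KO libraries. FOXA2H-KO replicate 1 was the highest of the 6 libraries while the other FOXA2H-KO libraries were the lowest, so that the log2 fold change of 0.14 turned to -1.33 without that library. Cyp2c38 and Cyp2c40 were at or under 3.77 CPM in every library, with log2 fold changes of 0.62 and 0.06. Cyp2c69, not tested, had 4, 3 and 4 counts in the FOXA2f/f libraries and 6, 5 and 7 counts in the FOXA2H-KO libraries, and its CPM did not overlap between groups at this small number of counts. Cyp2c40 and Cyp2c69 shared 34.4% and 35.4% of their transcript windows with other genes, Cyp2c67 shared 23.7% and Cyp2c68 19.8%, so that the counts of these 4 are uncertain where reads could not be told apart. Cyp2c65 had at most 6 counts, and Cyp2c66 none. The number of Cyp2c genes that stayed above 0 was 8 of 11 without FOXA2H-KO replicate 2, 9 of 11 without FOXA2f/f replicate 2 and 11 of 11 without FOXA2H-KO replicate 4.

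**Figure D4:**
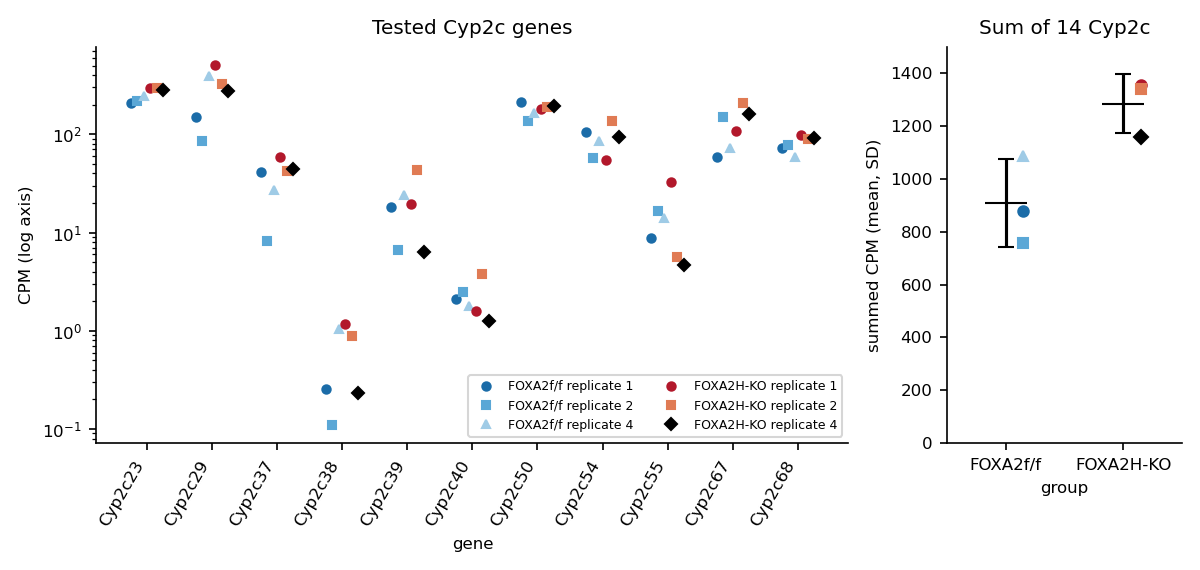
Left, CPM (log axis) of the 11 tested Cyp2c genes in each library, FOXA2f/f in blue and FOXA2H-KO in red, orange and black. Right, the summed CPM of all 14 Cyp2c genes in each library with the mean and SD of each group, where the 3 FOXA2H-KO points, 1157 to 1357 CPM, lie above the 3 FOXA2f/f points, 758 to 1088 CPM.

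The Cyp2d genes, relatives of the human debrisoquine oxidase, were among the most abundant members and showed small differences. Of 7 tested, 2 were higher and 5 lower, with none at an unadjusted p under 0.05. Cyp2d10 had 308, 418 and 312 CPM in the FOXA2f/f libraries and 303, 279.5 and 225 CPM in the FOXA2H-KO libraries. The FOXA2H-KO libraries were all below the FOXA2f/f libraries, by a narrow margin, with a log2 fold change of -0.36 ± 0.19 (SE) and an adjusted p of 0.952. Cyp2d9, a male-biased steroid hydroxylase, had 463, 985 and 471 CPM in the FOXA2f/f libraries and 538, 530.1 and 564 CPM in the FOXA2H-KO libraries. All libraries but FOXA2f/f replicate 2 were close to one another, and the log2 fold change of -0.23 was 0.22 without that library. Its transcript overlapped other annotated genes over 9.3% of its exonic bases.

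Cyp2d26 averaged 606 ± 57.8 CPM (SD, n = 3) in FOXA2f/f and 662 ± 55.2 CPM (SD, n = 3) in FOXA2H-KO, with a log2 fold change of 0.13 ± 0.17 (SE). Cyp2d22, held to be the closest in function to the human drug-metabolizing CYP2D enzyme, averaged 148 ± 4.74 CPM (SD, n = 3) in FOXA2f/f and 143 ± 15.1 CPM (SD, n = 3) in FOXA2H-KO. Its log2 fold change of -0.05 ± 0.14 (SE) was the smallest in size among the Cyp2d genes. Cyp2d40 averaged 25.8 ± 8.74 CPM (SD, n = 3) in FOXA2f/f and 22.8 ± 4.95 CPM (SD, n = 3) in FOXA2H-KO, with a log2 fold change of -0.18 ± 0.26 (SE). Cyp2d11 and Cyp2d34 lay under 2 CPM in every library, with log2 fold changes of 0.47 and -0.52, and Cyp2d12 had at most 8 counts. Cyp2d10 and Cyp2d11 shared between 11.7% and 12.2% of their transcript windows, with each other above all.

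The Cyp2j genes, epoxygenases of arachidonic acid, were lower in FOXA2H-KO by less than their spread. Cyp2j5, the main one in liver, had 304, 547 and 289.9 CPM in the FOXA2f/f libraries and 311, 381 and 361 CPM in the FOXA2H-KO libraries. FOXA2f/f replicate 2 was the highest, and the log2 fold change of -0.12 was 0.24 without it. Cyp2j6 had 81.2, 145 and 71.5 CPM in the FOXA2f/f libraries and 73.2, 87.3 and 73.9 CPM in the FOXA2H-KO libraries, with the same library on top and a log2 fold change of -0.34, which was 0.04 without it. Cyp2j9 averaged 6.41 ± 3.10 CPM (SD, n = 3) in FOXA2f/f and 4.76 ± 0.481 CPM (SD, n = 3) in FOXA2H-KO, with a log2 fold change of -0.44. Without FOXA2f/f replicate 2 the value was -0.77, at an unadjusted p under 0.05. Cyp2j8 had at most 3 counts in any library, and Cyp2j7, Cyp2j11, Cyp2j12 and Cyp2j13 had none.

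Among the single-gene subfamilies, Cyp2f2, which activates naphthalene and is a periportal gene in liver, had 406, 849 and 459 CPM in the FOXA2f/f libraries and 652, 686 and 565 CPM in the FOXA2H-KO libraries. The groups overlapped, and the log2 fold change of 0.15 ± 0.29 (SE) was 0.56, at an unadjusted p under 0.05, without FOXA2f/f replicate 2. A further annotated gene, Gm15883, covers 13.5% of the exonic bases of Cyp2f2. Cyp2r1, a vitamin D hydroxylase, averaged 17.6 ± 5.75 CPM (SD, n = 3) in FOXA2f/f and 14.8 ± 1.60 CPM (SD, n = 3) in FOXA2H-KO, with a log2 fold change of -0.24. Cyp2u1, a fatty acid hydroxylase, averaged 6.09 ± 5.34 CPM (SD, n = 3) in FOXA2f/f and 3.18 ± 1.27 CPM (SD, n = 3) in FOXA2H-KO, with a log2 fold change of -0.92. The value was 0.08 without FOXA2f/f replicate 2 and -1.30, at an unadjusted p under 0.05, without FOXA2f/f replicate 4. Another gene overlaps 10.5% of the exonic bases of Cyp2u1.

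Cyp2s1, an enzyme known mainly from epithelia outside the liver, was higher in FOXA2H-KO at a very low level. It had 4, 6 and 11 counts in the FOXA2f/f libraries and 34, 19 and 18 counts in the FOXA2H-KO libraries, or 0.172, 0.329 and 0.349 CPM in the FOXA2f/f libraries and 1.25, 0.761 and 0.832 CPM in the FOXA2H-KO libraries. The groups did not overlap, with a log2 fold change of 1.72 ± 0.45 (SE), an unadjusted p of 0.00566 and an adjusted p of 0.650. The unadjusted p was under 0.05 in all 11 alternative settings that kept the gene, with log2 fold changes from 1.47 to 1.94, and none of these called it. Under the filter on low counts, in the reported test too, it was kept only through the FOXA2H-KO libraries, where it was high. Its p-values are therefore not independent of that filter. All 5 tested cholangiocyte markers of 6 were also higher in FOXA2H-KO, none of the 6 was at 0 in all libraries, and Spp1 and Krt7 had unadjusted p-values of 0.0426 and 0.0472. Their sum was 174 to 367 CPM in FOXA2f/f and 252 to 707 CPM in FOXA2H-KO libraries. The part of such cells in the Cyp2s1 values was not tested.

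A few members were too low for the test. Cyp2g1, an enzyme of the olfactory mucosa, had 10, 11 and 25 counts in the FOXA2f/f libraries and 0, 5 and 0 counts in the FOXA2H-KO libraries, and its CPM did not overlap between groups. It was fitted in 6 alternative settings, DESeq2 and no filter among them, with an unadjusted p under 0.05 in each and an adjusted p of 0.289 in DESeq2. Where the filter on low counts applied, it was kept only through FOXA2f/f libraries, where it was high. The p-values there are therefore not independent of the filter. Cyp2g1 lies between Cyp2a4 and Cyp2a5 along chromosome 7, and it was lower in FOXA2H-KO as they were. Cyp2t4 had at most 5 counts in any library, with the FOXA2H-KO values at the low end. Cyp2w1 had no count.

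Of the 9 Cyp3a genes, a subfamily known for its induction through PXR, 7 had their lowest CPM in FOXA2H-KO replicate 4. Cyp3a11 had 4444, 12084 and 4529.9 CPM in the FOXA2f/f libraries and 6090.1, 5120.2 and 457 CPM in the FOXA2H-KO libraries. FOXA2H-KO replicate 4 was at 8.92% of the median of the other 5 libraries, whereas FOXA2H-KO replicates 1 and 2 lay inside the range of FOXA2f/f. The log2 fold change was -0.85 ± 0.84 (SE) with an adjusted p of 0.983. It was -0.31 without FOXA2H-KO replicate 4 and -0.21 without FOXA2f/f replicate 2, and -1.33 without FOXA2H-KO replicate 1. Cyp3a11 made up between 45.9% and 64.6% of all counts on the 57 members in 5 libraries, and 8.05% in FOXA2H-KO replicate 4.

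The neighbours of Cyp3a11 in its cluster went with it in that library. The 8 clustered Cyp3a genes extend over 0.768 Mb of chromosome 5 (chr5:145345279-146113287 in GRCm38), and 7 of the 8 were lowest in FOXA2H-KO replicate 4. In that library the 8 genes were at 3.12% to 126% of the median of the other 5 libraries, with a median of 13.6%. Cyp3a25, the Cyp3a gene with the next highest CPM, had 442, 657 and 390.2 CPM in the FOXA2f/f libraries and 465, 517 and 172 CPM in the FOXA2H-KO libraries. Cyp3a59, the gene it shares most sequence with, had 64.5, 118 and 46.4 CPM in the FOXA2f/f libraries and 68.5, 65.5 and 18.4 CPM in the FOXA2H-KO libraries. In both the FOXA2H-KO replicates 1 and 2 were within the FOXA2f/f range, and the log2 fold changes of -0.37 and -0.58 became 0.00 and -0.17 without FOXA2H-KO replicate 4.

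The clustered genes with female bias were near the floor of the assay in these male mice. Cyp3a44 had 37, 27 and 49 counts in the FOXA2f/f libraries and 34, 19 and 1 counts in the FOXA2H-KO libraries. Its groups did not overlap, and the log2 fold change of -1.14 ± 0.73 (SE) was -0.60 without FOXA2H-KO replicate 4. Cyp3a41a had 13, 28 and 30 counts in the FOXA2f/f libraries and 34, 18 and 2 counts in the FOXA2H-KO libraries, Cyp3a41b 20, 37 and 29 counts in the FOXA2f/f libraries and 24, 19 and 3 counts in the FOXA2H-KO libraries, and the lowest value of each was again that of FOXA2H-KO replicate 4. Their log2 fold changes of -0.52 and -1.05 were -0.01 and -0.59 without that library. Cyp3a41a and Cyp3a41b shared 90.8% and 88.2% of their transcript windows with another gene, for the most part with each other, so that their separate counts are uncertain. Cyp3a16, not tested, had 5, 14 and 13 counts in the FOXA2f/f libraries and 8, 10 and 1 counts in the FOXA2H-KO libraries. Cyp3a57, also not tested, was the exception at 2, 7 and 3 counts in the FOXA2f/f libraries and 4, 4 and 4 counts in the FOXA2H-KO libraries.

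FOXA2H-KO replicate 4 was not low at the genes around the cluster. The other 9 genes within 200 kb of it that averaged at least 1 CPM were at 85.6% to 129% of the median of the other libraries. Cyp3a13, which lies apart on the same chromosome, had 334, 233 and 196 CPM in the FOXA2f/f libraries and 223, 294 and 267 CPM in the FOXA2H-KO libraries, with a log2 fold change of 0.04 ± 0.23 (SE). Over all members, 5 of the 40 tested (12.5%) were at least 4-fold below the lowest of the other 5 libraries in this library, namely Cyp3a11, Cyp3a41a, Cyp3a41b, Cyp3a44 and Cyp2a5, as were 0.18% of all genes tested. This criterion was chosen after the values had been seen. The hepatocyte markers of the same library summed to 126122 CPM, inside the range of the other libraries, and its Foxa2 level was 1.62 CPM against 1.03 and 0.761 CPM in the other FOXA2H-KO libraries.

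**Figure D5:**
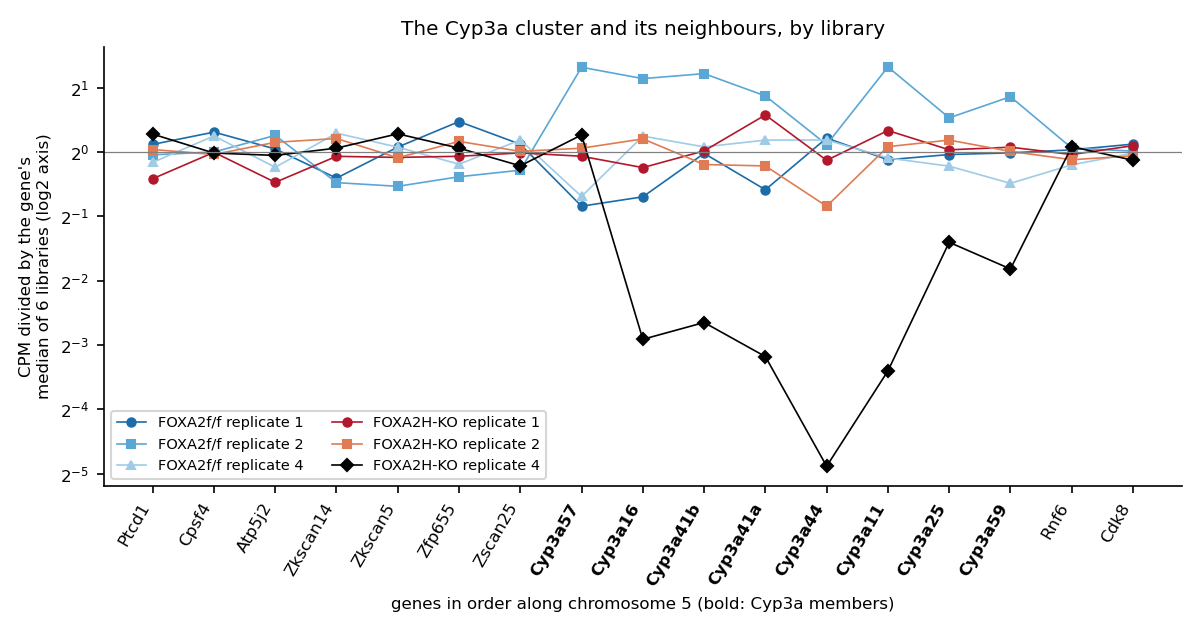
CPM of the 8 clustered Cyp3a genes (bold names) and of 9 flanking genes in their order along chromosome 5, each divided by the gene's median of the 6 libraries (log2 axis), one line per library. The black line of FOXA2H-KO replicate 4 drops from Cyp3a16 to Cyp3a59 and returns to the other lines at the flanking genes, and FOXA2f/f replicate 2 is the highest for 7 of the 8.

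The promoters of the cluster had a feature in common. RefSeq promoter windows of 300 bases, 250 before and 50 after the start, were matched by symbol for 49 of the 57 members. A FOXA core, as defined for Cyp2a4, was found in 16 of these 49 and in 13.5% of all 32851 promoter windows of the table. All 8 clustered Cyp3a genes held one, as did 8 of the 41 other members with a window, and Cyp3a13 held none. The promoters of the cluster are related in sequence and are not 8 independent cases. The nuclear receptor half-site AGGTCA and its variant AGTTCA, on either strand, were found together in 23 of 49 members and 27.7% of all windows. The AHR core GCGTG on either strand was found in 9 of 49 members and 32.4% of all windows. A match is a description of the letters and does not show that a factor binds there.

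The 250 bases before the start, on the gene's own strand and with the FOXA core in capitals, are printed for the most abundant cluster genes, for Cyp3a44 and for Cyp3a13 as the Cyp3a gene outside the cluster. They are Cyp3a11 (chr5:145879855-145880104, minus strand), Cyp3a44 (chr5:145805875-145806124, minus strand), Cyp3a25 (chr5:146009618-146009867, minus strand), Cyp3a59 (chr5:146079008-146079257, plus strand) and Cyp3a13 (chr5:137921620-137921869, minus strand), all in GRCm38.p6.
Cyp3a11: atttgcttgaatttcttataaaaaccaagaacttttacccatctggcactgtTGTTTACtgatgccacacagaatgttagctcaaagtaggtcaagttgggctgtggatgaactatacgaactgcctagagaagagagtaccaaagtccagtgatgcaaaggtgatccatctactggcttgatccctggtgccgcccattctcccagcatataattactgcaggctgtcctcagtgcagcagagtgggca
Cyp3a44: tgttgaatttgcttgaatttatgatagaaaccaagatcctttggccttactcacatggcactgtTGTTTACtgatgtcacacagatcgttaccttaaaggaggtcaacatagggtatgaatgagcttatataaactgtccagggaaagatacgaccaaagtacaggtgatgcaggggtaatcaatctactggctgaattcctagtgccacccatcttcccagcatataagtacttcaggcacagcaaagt
Cyp3a25: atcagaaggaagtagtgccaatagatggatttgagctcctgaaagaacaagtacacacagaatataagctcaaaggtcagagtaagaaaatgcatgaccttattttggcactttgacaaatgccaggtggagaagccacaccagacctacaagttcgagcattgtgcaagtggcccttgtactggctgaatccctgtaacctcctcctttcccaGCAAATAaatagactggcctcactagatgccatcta
Cyp3a59: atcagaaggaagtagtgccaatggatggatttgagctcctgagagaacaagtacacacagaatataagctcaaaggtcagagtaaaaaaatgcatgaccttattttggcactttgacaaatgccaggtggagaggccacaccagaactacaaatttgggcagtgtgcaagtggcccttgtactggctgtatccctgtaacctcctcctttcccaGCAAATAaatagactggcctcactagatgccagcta
Cyp3a13: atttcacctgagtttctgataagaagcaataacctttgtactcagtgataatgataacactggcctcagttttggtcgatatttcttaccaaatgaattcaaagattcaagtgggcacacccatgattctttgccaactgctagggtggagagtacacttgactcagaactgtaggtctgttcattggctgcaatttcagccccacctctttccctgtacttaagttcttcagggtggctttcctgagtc
In Cyp3a11 and Cyp3a44 the core was TGTTTAC, beginning at position -198 and -186 from the start. In Cyp3a25 and Cyp3a59, whose stretches were identical at 239 of 250 bases (95.6%), it was TATTTGC on the opposite strand, beginning at position -36 of each. The clustered genes held the core both where FOXA2H-KO replicates 1 and 2 lay within the FOXA2f/f range, as for Cyp3a11, and where they lay below it, as for Cyp3a44. Cyp3a57 held it too, and with 4 counts in FOXA2H-KO replicate 4 was at 126% of the median of the other 5 libraries. Since every clustered gene held the core, its presence cannot tell these genes apart.

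Of 11 xenobiotic sensors and partners of the P450 enzymes, 6 were higher and 5 lower, with log2 fold changes between -0.40 and 0.63, and 1 had an unadjusted p under 0.05. This was the PXR gene Nr1i2, with 57.3, 62.3 and 64.9 CPM in the FOXA2f/f libraries and 65.5, 84.9 and 85.7 CPM in the FOXA2H-KO libraries. Its groups did not overlap, and the log2 fold change was 0.36 ± 0.14 (SE) with an unadjusted p of 0.0404 and an adjusted p of 0.941. Ppara, the fatty acid receptor, had the next smallest p, with a log2 fold change of 0.36 and an adjusted p of 0.957. Among 7 electron donors and associated proteins 1 was higher and 6 lower, with none at an unadjusted p under 0.05. Por, the reductase that serves all microsomal P450 enzymes, had a log2 fold change of -0.02 ± 0.25 (SE), and Cyb5a, cytochrome b5, -0.05 ± 0.22 (SE). The progesterone receptor membrane proteins Pgrmc2 and Pgrmc1 had the smallest p of the 7, with log2 fold changes of -0.24 and -0.22, or -0.08 and 0.04 without FOXA2f/f replicate 2. Of 12 genes of haem synthesis and breakdown, 4 were higher and 8 lower, and none had an unadjusted p under 0.05. Ppox, the oxidase of protoporphyrinogen, had the smallest p of these, with a log2 fold change of -0.28 and an adjusted p of 0.941.

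Members known for a sex bias or a zone were also counted as lists. Of 9 members with female bias 6 were tested, of which 5 were lower in FOXA2H-KO and 1 higher, with Cyp2a4 and Cyp2b9 at an unadjusted p under 0.05. The 9 summed to 20.6 to 24.3 CPM in FOXA2f/f and 4.16 to 12.2 CPM in FOXA2H-KO. Cyp2a4 was the largest part of this sum in every library but FOXA2f/f replicate 1, where Cyp2b9 was. Of the female-biased genes outside the P450 families, 3 of 5 tested were higher and 2 lower, and the smallest p were those of Acot3 and Tox with log2 fold changes of 3.32 and 2.00 and unadjusted p-values of 0.00254 and 0.0210. Of 7 tested male-biased genes 3 were higher and 4 lower. Hsd3b5 and Susd4 had the smallest p of these, with log2 fold changes of -4.59 and -1.33 and unadjusted p-values of 0.0204 and 0.0324, and both were highest in FOXA2f/f replicate 2. Without that library their log2 fold changes were -1.02 and -0.69, and those of the other tested male-biased genes were 1.37 to 3.23. The 9 male-biased genes summed to 1287, 5541 and 1360 CPM in FOXA2f/f and 4167, 2433 and 3863 CPM in FOXA2H-KO libraries. The log2 fold change of Acot3 was 2.07 without FOXA2H-KO replicate 4.

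Of 8 members with pericentral expression, 5 were higher and 3 lower, with Cyp2b10 and Cyp2a5 in opposite directions at an unadjusted p under 0.05. The pericentral genes outside the P450 families were higher in 6 of 6 tested, where 47.8% of all genes tested were higher. Not all of them stayed positive without FOXA2f/f replicate 2, the lowest log2 fold change then being -0.22. The smallest p was that of Oat, ornithine aminotransferase, with 26.1, 14.2 and 35.4 CPM in the FOXA2f/f libraries and 89.8, 103 and 89.6 CPM in the FOXA2H-KO libraries. Its log2 fold change was 1.89 ± 0.30 (SE), with an unadjusted p of 2.77e-04 and an adjusted p of 0.539, and the next, the glutamate transporter Slc1a2, had 0.72, or 0.34 without FOXA2f/f replicate 2, and an adjusted p of 0.983. Of 8 periportal genes 3 were higher and 5 lower, and Hsd17b13 and Gls2 had the smallest p with log2 fold changes of 0.44 and -0.40. No gene of these lists was called.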

How the data were processed

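RNA-seq libraries of mouse hepatocytes, 3 FOXA2f/f and 3 FOXA2H-KO, all CCl4-treated, were analysed. The authors deposited, per library, unnormalized read counts and FPKM values for 34745 Ensembl genes. The submitters' processing notes name CASAVA 1.8, TopHat2 2.1.0, HTSeq, edgeR and mm10, and the annotation release is not given in the sources used here. A table of the whole series held the 6 count columns unchanged and was not used separately.

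Counts were tested in R 4.3.3 with edgeR 4.0.16 (TMM, filterByExpr, 14417 genes kept, quasi-likelihood test, Benjamini-Hochberg adjustment over all genes tested). Standard errors were obtained from each log2 fold change and its quasi-likelihood F statistic. Calls needed an adjusted p under 0.05 and a fold of at least 2. CPM are on the TMM-adjusted library size, and single values were also compared by the exact permutation test. The scripts were tested on simulated data. The sources used here do not say what the replicate numbers 1, 2 and 4 stand for, and the reported test pairs no libraries. Alternatives were DESeq2 1.42.0, library size alone, edgeR's exact test, no filter, at least 10 counts in every library, limma 3.58.1 on log2(FPKM + 1) at a mean of at least 1 FPKM, a replicate block, and each library left out.

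Named were Foxa2, members with a mean of at least 10 CPM, an unadjusted p under 0.05 or groups without overlap, Cyp1a1, the highest and lowest member of a subfamily, and, of each list, the 2 tested genes with the smallest p, besides Ahr, Nr1i2, Nr1i3, Por and Cyb5a. Further low-level members are named to account for all 57. One gene that this rule names is not reported here. Members and lists were chosen with earlier results of these data known. Gene positions and shared transcript windows of 100 bases come from GENCODE annotation on GRCm38, promoter sequences from RefSeq (GRCm38.p6).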

Additional observations from a re-analysis of the deposited data

How the results depend on the processing

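The number of members called was 0 in edgeR's quasi-likelihood test and 1, Cyp2a4, both with DESeq2 and with edgeR's exact test, and the cause was not tested. Over all genes these tools called 1, 75 and 64, and edgeR's quasi-likelihood test without a filter on low counts called 2. With library size alone and with limma on FPKM no gene was called. Under library size alone all genes had a median log2 fold change of 0.10 in place of -0.01, so that changes under it are read against that shift. This scaling turned the log2 fold changes of Cyp2d22 (0.064) and Cyp2j5 (0.028). limma on FPKM turned those of Cyp2c55 (-0.17), Cyp2d22 (0.064) and Cyp2j5 (0.065), where all genes had a median of 0.08, above the values of the latter 2. The number of members with an unadjusted p under 0.05, 7 in the reported test, stayed between 5 and 10 in all alternatives.

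The deviations of same-numbered libraries from their group means had correlations of -0.07, 0.03 and -0.23 for the numbers 1, 2 and 4. With so few libraries per group, these values cannot decide whether same-numbered libraries belong together. With the replicate block 0 members were called, 8 had an unadjusted p under 0.05 and the members had a median log2 fold change of -0.08, while Cyp2c55 turned to -0.48 and Cyp2c40 also turned below 0.

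Leaving out 1 library at a time called no member, gave between 0 and 6 called genes and moved the median log2 fold change of the members between -0.23, without FOXA2H-KO replicate 2, and 0.047. The log2 fold changes that changed sign in at least 1 of these fits, with their ranges, were those of Cyp2a12 (-0.100 to 0.18), Cyp2a22 (-0.050 to 0.54), Cyp2c39 (-0.33 to 0.94), Cyp2c40 (-0.57 to 0.35), Cyp2c50 (-0.010 to 0.33), Cyp2c54 (-0.16 to 0.46), Cyp2c55 (-1.33 to 0.56), Cyp2d9 (-0.41 to 0.22), Cyp2d22 (-0.098 to 0.041), Cyp2d40 (-0.37 to 0.13), Cyp2f2 (-0.026 to 0.56), Cyp2j5 (-0.28 to 0.24), Cyp2j6 (-0.53 to 0.035), Cyp2r1 (-0.45 to 0.025), Cyp2u1 (-1.30 to 0.084) and Cyp3a13 (-0.12 to 0.30). With the exception of Cyp2u1, all were within 1.5-fold of no difference in the full data. Of the other members, Cyp1a1 (-2.19 to -0.20), Cyp1b1 (0.21 to 1.28), Cyp2b9 (-5.31 to -1.59), Cyp2c29 (0.46 to 1.67), Cyp2c38 (0.17 to 2.00), Cyp3a11 (-1.33 to -0.21), Cyp3a41a (-1.26 to -0.015) and Cyp3a44 (-1.89 to -0.60) moved by over 1.5 times. Where a group was left with 2 libraries the spread was estimated over both groups. The depth limits the low genes most, since Cyp2s1, Cyp3a44 and Cyp2b9 rest on counts as low as 4, 1 and 2 in a library.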

Other observations

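Among the P450 pseudogenes of families 2 and 3, which the choice of members left out, Cyp2d37-ps reached the level of an abundant member in FPKM only. Its mean of 35.0 CPM was below the 169 CPM of Cyp2b10 and the 145 CPM of Cyp2d22. It had 831, 782 and 1107 counts in FOXA2f/f and 1073, 756 and 573 counts in FOXA2H-KO libraries, and its mean of 59.4 FPKM was above the 55.1 FPKM of Cyp2b10 and the 52.8 FPKM of Cyp2d22. The groups overlapped, with a log2 fold change of -0.24 ± 0.18 (SE) and an adjusted p of 0.983 in edgeR's quasi-likelihood test. Cyp2d41-ps had 19, 53 and 33 counts in FOXA2f/f and 48, 54 and 46 counts in FOXA2H-KO libraries, with a log2 fold change of 0.37 and overlapping groups. Both lie among the Cyp2d genes on chromosome 15. Cyp3a63-ps, inside the Cyp3a cluster, had at most 4 counts in a library, and the family member Cyp2ab1, whose symbol has a second letter, at most 11.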
